A study of Rattus norvegicus with 48 samples.

Results

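Genes known as markers of the macrophages that live at the borders of the brain were followed across rat cortical cultures treated with Tat, cocaine and 4-octyl itaconate (4OI). The 9 genes were Cd163, Lyve1, F13a1, Cd209f, Mrc1, Pf4, Stab1, Folr2 and Ms4a7, which make up 9 of the 30211 gene rows of the table. Each row was found by its symbol. Cd163, Lyve1, F13a1 and Cd209f were chosen by their measured falls in CPM in these data, so their values are given without a test in every comparison, all of which share libraries with that choice. The other 5 genes were named as markers of the same cell type, and the tests below are on those 5.

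The cultures were primary cortical cells from Sprague-Dawley rat fetuses of embryonic day 18, kept for 3 weeks in vitro, and the labels call the cells neurons. RNA was measured by polyA-selected RNA-seq in 16 groups of 3 libraries, 48 in all. The Control group had no agent. Tat, the transactivator protein of HIV (residues 1 to 86), was given at 6 ng/mL for 48 h, and cocaine at 25 µM for 24 h, each alone (Tat, Cocaine) or together (Tat-Cocaine). A cell-permeable ester of itaconate (4OI, 250 µM), the TBK1 and IKKε inhibitor Amlexanox (25 µM), the EZH2 inhibitor Tazemetostat (3 µM) or the KCa3.1 channel blocker Senicapoc (1 µM) was given for 48 h, each alone, with Tat and with Tat-Cocaine. A further group is named by joining these agents, so Tat-Cocaine-4OI received all 3 agents. No allele or transgene was used, all groups came from the same kind of culture, and the labels do not say whether replicates were separate cultures, so p-values measure only the spread between these libraries.

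Border-associated macrophages sit in the meninges, the perivascular spaces and the choroid plexus, whereas microglia sit inside the brain tissue. They take up debris and proteins from fluid through scavenger and lectin receptors, and many of the genes followed here encode such receptors. Itaconate is made by activated macrophages from a Krebs cycle intermediate, and 4OI is used to bring it into cells.

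The labelled cell type was checked against its markers. Neuronal genes were present in all 48 libraries, with Map2 between 215 and 795 CPM (read counts relative to the library total, scaled between libraries by the authors) and Snap25 between 83.9 and 574 CPM. Astrocyte and macrophage genes were present in all libraries too, with Gfap between 2231 and 7582 CPM and Csf1r between 65.2 and 881 CPM, so the libraries were from mixed cultures. The T cell gene Cd3e was listed at 0 in 44 libraries, and the endothelial genes Cldn5 and Cdh5 reached at most 0.1 and 5.72 CPM, with 9.01 to 25.3 CPM summed over the endothelial list. Depth was 17515191 to 29056637 reads a library, and 1 read was worth 0.0334 to 0.0583 CPM. In bulk RNA such as this, fewer cells of a type and less RNA per cell cannot be told apart.

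Promoter sequences were taken from RefSeq on the rat build GRCr8, from 250 bases before to 50 bases after each gene's start, and 8 of the 9 genes had an entry. Shown here are 2 pairs of genes whose levels moved together over the 48 libraries, Cd163 with Lyve1 (r = 0.84) and Mrc1 with Folr2 (r = 0.91). Capitals mark matches to a PU.1 type motif (GAGGAA), a Maf type motif (TGCTGA) or a glucocorticoid receptor type motif (AGAACA), each searched on both strands.
Cd163, chr4:158770524-158770823, plus strand: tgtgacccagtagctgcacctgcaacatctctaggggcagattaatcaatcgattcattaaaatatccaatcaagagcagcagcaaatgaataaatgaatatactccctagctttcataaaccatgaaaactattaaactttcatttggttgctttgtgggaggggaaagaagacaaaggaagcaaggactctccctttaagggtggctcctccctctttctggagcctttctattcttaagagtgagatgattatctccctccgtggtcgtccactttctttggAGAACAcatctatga
Lyve1, chr1:174410928-174411227, minus strand: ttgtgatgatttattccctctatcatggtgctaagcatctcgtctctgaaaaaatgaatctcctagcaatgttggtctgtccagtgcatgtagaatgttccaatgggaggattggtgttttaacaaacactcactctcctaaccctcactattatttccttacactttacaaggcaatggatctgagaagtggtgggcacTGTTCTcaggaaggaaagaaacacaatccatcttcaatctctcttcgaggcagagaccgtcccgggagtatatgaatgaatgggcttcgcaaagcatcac
Mrc1, chr17:82157475-82157774, plus strand: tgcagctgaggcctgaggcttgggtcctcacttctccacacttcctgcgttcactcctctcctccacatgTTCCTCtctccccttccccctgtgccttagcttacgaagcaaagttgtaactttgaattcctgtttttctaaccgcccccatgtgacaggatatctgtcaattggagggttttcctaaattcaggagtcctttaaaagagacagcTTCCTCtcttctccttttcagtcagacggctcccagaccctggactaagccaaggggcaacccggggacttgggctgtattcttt
Folr2, chr1:165630333-165630632, minus strand: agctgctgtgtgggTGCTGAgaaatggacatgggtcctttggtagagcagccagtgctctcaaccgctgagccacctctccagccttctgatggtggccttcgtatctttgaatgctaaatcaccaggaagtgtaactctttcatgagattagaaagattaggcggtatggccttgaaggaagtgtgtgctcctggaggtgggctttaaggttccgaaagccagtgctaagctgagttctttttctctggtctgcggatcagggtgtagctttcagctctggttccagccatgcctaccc

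PU.1 is the factor that macrophages need to form, and its 6 letters stood in 3 of the 8 promoters, those of F13a1, Mrc1 and Stab1, against 27.6% of 33469 rat promoters of the same length. The Maf motif was found in 2 of 8, Stab1 and Folr2, against 18.4%. Cd163 is a known glucocorticoid target, and AGAACA stood at position 36 after its start and at -50 in Lyve1, in 2 of 8 promoters against 20.7%. The core of an antioxidant response element (TGACNNNGC) was found at -62 in Cd209f only among the 8, against 12.1% of all promoters. The motifs overlap no other match in these windows. These are matches of letters, and no binding was measured.

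Across the 16 groups all 9 genes had their lowest mean in Tat-Cocaine-4OI. For 8 of the 9 the lowest 2 groups were Tat-Cocaine-4OI and Tat-4OI. The exception was F13a1, whose second lowest group was Tat-Cocaine-Tazemetostat. Cd163, Lyve1, F13a1 and Cd209f were picked for their falls, so their places may follow from that choice. Mrc1, Pf4, Stab1, Folr2 and Ms4a7 were not picked that way, and each had those same lowest 2 groups. The share of all genes with their lowest mean in Tat-Cocaine-4OI was not computed. No library was listed at 0 for any of the 9 genes, and all 9 passed the filter on low values.

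**Figure D1:**
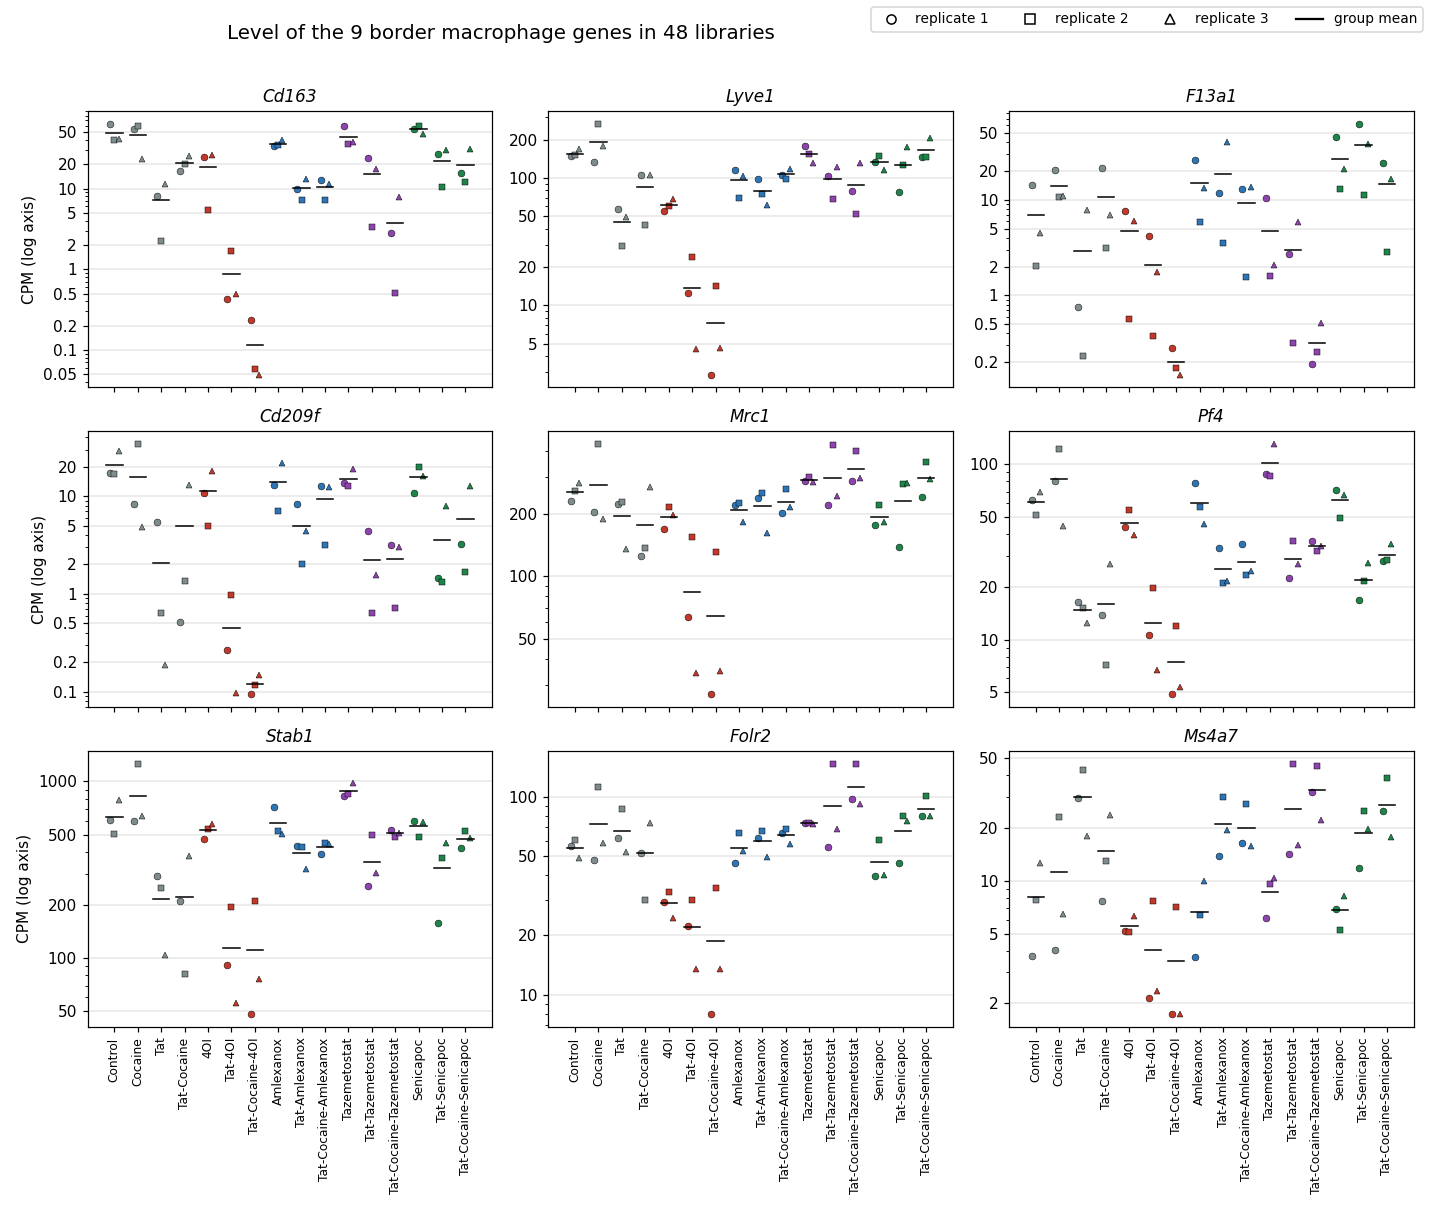
CPM on a log axis in the 48 libraries for each of the 9 genes, by treatment group, with circles, squares and triangles for replicates 1, 2 and 3, a black line for the group mean and colours for the added compound. The red Tat-Cocaine-4OI group has the lowest mean in every panel, and Cd163 there lies below 0.5 CPM in all 3 libraries.

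Cd163 encodes the scavenger receptor for haemoglobin bound to haptoglobin. Its highest group was Senicapoc at 54.3 ± 6.07 CPM (SD, n = 3) and its lowest Tat-Cocaine-4OI at 0.114 ± 0.104 CPM, a ratio of 477. Only 2 of the 15 pairs of neighbouring groups in the order of means did not overlap. Lyve1 encodes a hyaluronan receptor also found on lymphatic vessels, and it ranged from 192 ± 67.4 CPM in Cocaine to 7.22 ± 6.08 CPM in Tat-Cocaine-4OI, with 1 of 15 neighbouring pairs apart.

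F13a1, which encodes the A chain of coagulation factor XIII, had its highest mean in Tat-Senicapoc at 37.4 ± 25.4 CPM (SD, n = 3) and its lowest at 0.201 ± 0.0700 CPM. No neighbouring groups stood apart for F13a1, whose replicates differed widely within groups. Cd209f, a C-type lectin of the DC-SIGN family, ranged from 21.0 ± 6.69 CPM in Control to 0.120 ± 0.0277 CPM, again with no neighbours apart. At such low levels depth matters, and 0.5 CPM was worth 8.58 to 14.96 reads.

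The other 5 genes had a narrower range. Mrc1, the mannose receptor CD206, ranged from 328 ± 61.3 CPM in Tat-Cocaine-Tazemetostat to 64.1 ± 57.8 CPM (SD, n = 3), a ratio of 5.11. Stab1, a scavenger receptor of the stabilin family, ranged from 885 ± 82.7 CPM in Tazemetostat to 112 ± 87.2 CPM, and Pf4, a CXC chemokine, from 102 ± 25.4 CPM in Tazemetostat to 7.41 ± 3.99 CPM. Folr2, a folate receptor, and Ms4a7, a membrane protein of the MS4A family, were both highest in Tat-Cocaine-Tazemetostat, at 112 ± 30.2 and 33.04 ± 11.4 CPM, and lowest at 18.7 ± 14.1 and 3.51 ± 3.07 CPM. Of 15 neighbouring pairs, 2 were apart for Folr2, 1 for Pf4 and none for Mrc1, Stab1 and Ms4a7.

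The first comparison asked what 4OI did alone. Cd163 was 63.0, 40.4 and 40.8 CPM in Control replicates 1, 2 and 3, against 24.6, 5.43 and 25.9 CPM with 4OI. Lyve1 was 148, 151 and 168 CPM in Control and 54.8, 60.2 and 69.0 CPM with 4OI. For both genes every 4OI library was below every Control library. The log2 differences in log2(CPM + 0.5) were -1.59 ± 0.62 (SE) for Cd163 and -1.34 ± 0.44 for Lyve1, without a test. F13a1 at -0.58 ± 1.00 and Cd209f at -0.997 ± 0.83 had groups that overlapped.

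Of the 5 genes that could be tested against Control, 0 were called lower with 4OI alone by limma at a Benjamini-Hochberg FDR under 0.05, where 0.686% of 15890 genes were. Folr2 came nearest, at 56.3, 60.6 and 48.9 CPM in Control and 29.2, 33.1 and 24.5 CPM with 4OI, with no overlap. Its log2 difference was -0.93 ± 0.37 (limma, Benjamini-Hochberg FDR 0.22), and its unadjusted p was 0.017. Folr2 was called when only the 6 libraries compared were fitted (limma FDR 0.045, with 0.0535% of all genes called lower). It was also called with array weights, which did not fully converge (FDR 0.0050, 8.51% of all genes). Leaving out any 1 library left it uncalled (limma FDR up to 0.58). The other 4 genes had log2 differences from -0.41 to -0.24. Over all genes 2082 had an unadjusted p under 0.05.

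**Figure D2:**
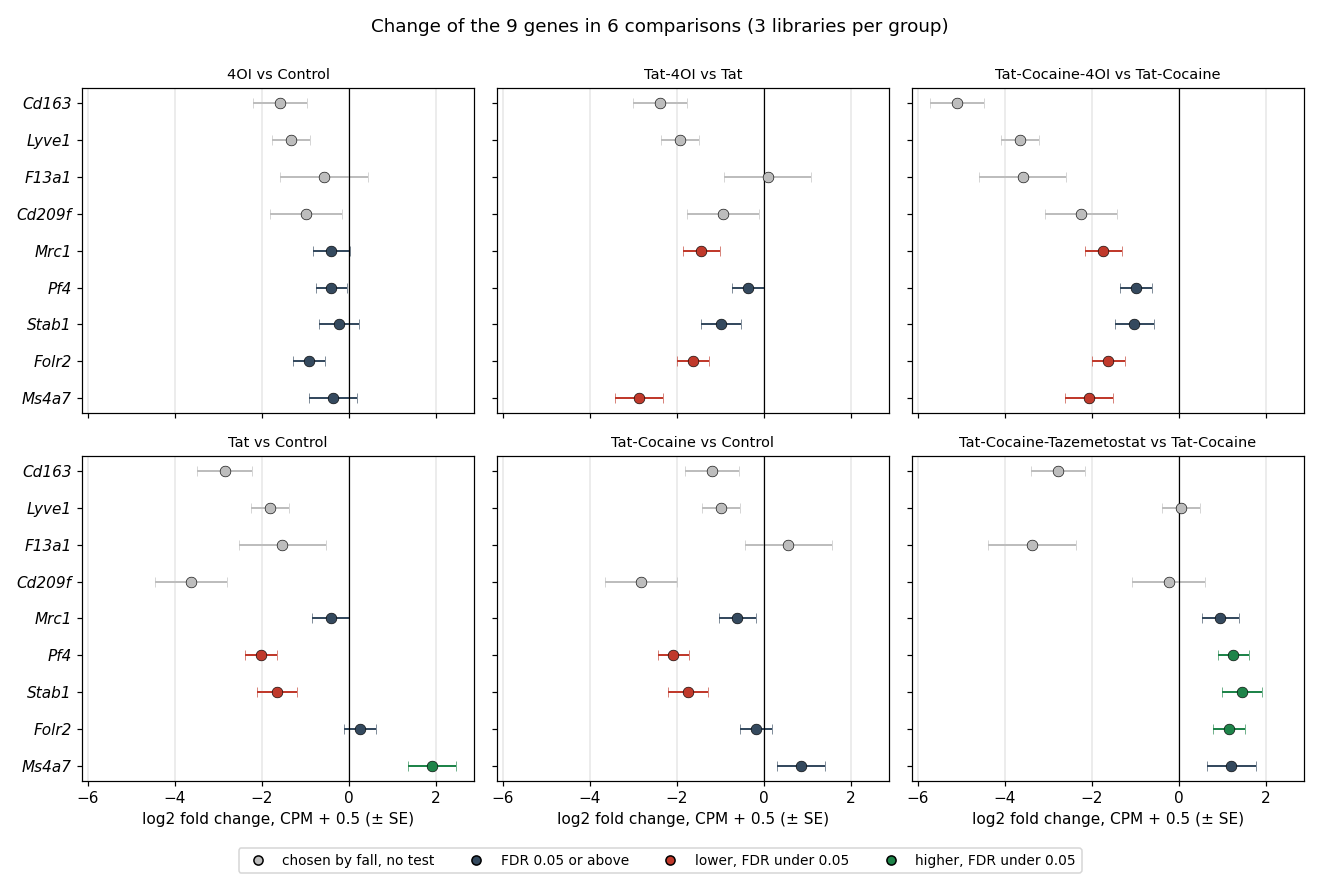
Log2 fold change of each gene, on the log2(CPM + 0.5) scale with bars of 1 SE, in 6 comparisons. Grey points are the 4 genes picked for their falls, which carry no test, red and green points passed FDR 0.05 lower or higher, and dark points did not. Folr2, Ms4a7 and Mrc1 are red in both comparisons of 4OI with Tat present.

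On top of Tat, 4OI came with lower Folr2, Ms4a7 and Mrc1. Ms4a7 was 29.6, 42.99 and 17.9 CPM with Tat and 2.14, 7.63 and 2.34 CPM with Tat-4OI. Folr2 was 61.6, 86.6 and 52.8 CPM with Tat and 22.2, 30.2 and 13.4 CPM with Tat-4OI. For both genes the groups did not overlap, while Mrc1 overlapped, at 223, 227 and 134 CPM with Tat and 63.2, 155 and 34.2 CPM with Tat-4OI. The log2 differences were -2.88 ± 0.55 for Ms4a7, -1.63 ± 0.37 for Folr2 and -1.44 ± 0.42 for Mrc1 (limma, Benjamini-Hochberg FDR 0.00045, 0.0025 and 0.018). These 3 of the 5 tested genes were called lower, where 9.48% of all genes were. Pf4 at -0.36 ± 0.36 (FDR 0.51 by limma) and Stab1 at -0.98 ± 0.46 (FDR 0.14) were not called.

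Ms4a7 and Folr2 kept their calls when any 1 library was left out. Mrc1 lost its call without Tat replicate 1 (limma FDR 0.066), Tat replicate 2 (0.098), Tat-4OI replicate 1 (0.075) or Tat-4OI replicate 3 (0.18). It also lost it when only the 6 libraries compared were fitted (limma FDR 0.12), when 21 libraries of 7 groups were (0.11), and with the general macrophage genes described below as a covariate (0.27). Stab1 was called without Tat replicate 3 (0.038) or Tat-4OI replicate 2 (0.037).

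Among the genes picked for their falls, Cd163 went from 8.11, 2.21 and 11.5 CPM with Tat to 0.428, 1.67 and 0.487 CPM with Tat-4OI, which was 452 reads against 49 over the group. Lyve1 went from 57.6, 29.2 and 49.8 to 12.5, 24.1 and 4.52 CPM. Neither gene overlapped between the groups, and the log2 differences were -2.38 ± 0.62 and -1.92 ± 0.44. Without Tat-4OI replicate 3 the value of Lyve1 was -1.31. F13a1 was not lower, at 0.760, 0.230 and 7.75 CPM with Tat and 4.17, 0.376 and 1.75 CPM with Tat-4OI (log2 difference 0.09 ± 1.00). Cd209f was already low with Tat, at 5.42, 0.644 and 0.189 CPM, and was 0.268, 0.968 and 0.0973 CPM with Tat-4OI. Its groups overlapped, with 125 reads against 25.

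With Tat and cocaine together, the 4 picked genes stood furthest below their level without 4OI. Cd163 was 16.6, 19.9 and 25.5 CPM in Tat-Cocaine and 0.234, 0.0583 and 0.0496 CPM in Tat-Cocaine-4OI. That was 1509 reads against 7, a ratio of depth-scaled counts of 174, given without a test. Lyve1 was 107, 42.98 and 106 CPM against 2.85, 14.2 and 4.63 CPM. No library of the treated group reached the untreated ones for either gene, and the log2 differences were -5.10 ± 0.62 and -3.64 ± 0.44. Without Tat-Cocaine-4OI replicate 2 that of Lyve1 was -4.25. With a pseudocount of 0.1 or 1 in place of 0.5, that of Cd163 was -6.68 or -4.27.

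F13a1 was 21.8, 3.11 and 6.88 CPM in Tat-Cocaine and 0.281, 0.175 and 0.149 CPM in Tat-Cocaine-4OI, or 758 reads against 12, with 511 of the 758 in Tat-Cocaine replicate 1. Cd209f was 0.511, 1.35 and 12.9 CPM against 0.0936, 0.117 and 0.149 CPM, or 366 reads against 7. Its log2 difference of -2.24 ± 0.83 was -1.14 without Tat-Cocaine replicate 3. All 4 picked genes thus stood at 14.2 CPM or less in every Tat-Cocaine-4OI library, and Cd163, F13a1 and Cd209f at 0.281 CPM or less.

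Of the 5 tested genes, Mrc1, Folr2 and Ms4a7 were lower here too. Mrc1 was 124, 137 and 270 CPM in Tat-Cocaine and 26.9, 131 and 34.7 CPM in Tat-Cocaine-4OI. Folr2 was 51.9, 30.2 and 73.7 CPM against 7.96, 34.6 and 13.5 CPM. Ms4a7 was 7.71, 12.98 and 23.8 CPM against 1.73, 7.05 and 1.73 CPM. In each gene replicate 2 was the highest of the Tat-Cocaine-4OI libraries, and only Ms4a7 did not overlap. The log2 differences were -1.73 ± 0.42, -1.62 ± 0.37 and -2.05 ± 0.55 (limma, Benjamini-Hochberg FDR 0.0086, 0.0050 and 0.018), so 3 of 5 were called lower, where 3.29% of all genes were. Pf4 at -0.99 ± 0.36 (FDR 0.093 by limma) and Stab1 at -1.02 ± 0.46 (FDR 0.19) were not called.

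The count of 3 rested on single libraries and on the other groups in the fit. It was 5 without Tat-Cocaine-4OI replicate 2, when 3.91% of all genes were called lower. It was 1 without Tat-Cocaine replicate 3 (2.34% of all genes) or Tat-Cocaine-4OI replicate 3 (1.58%), and 0 without Tat-Cocaine-4OI replicate 1 (2.02%). When only the 6 libraries compared were fitted it was 0 (0.280%). With the 21 libraries of Control, Tat, Tat-Cocaine, Cocaine and the 4OI groups it was also 0 (1.31%). The calls over all genes thus moved too. Without Tat-Cocaine replicate 2, Pf4 and Stab1 were called lower (limma FDR 0.019 and 0.041) and Ms4a7 was not (0.051).

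Whether 4OI did more with Tat than alone was tested as a difference of differences. By limma at FDR 0.05, 0 of 5 genes were called with Tat (0.447% of all genes lower) and 0 of 5 with Tat-Cocaine (0.0881%), while 1896 and 1428 genes had an unadjusted p under 0.05. Ms4a7 had the largest of these differences, -2.52 ± 0.78 with Tat (interval of 2 SE from -4.08 to -0.95, FDR 0.15 by limma). With Tat-Cocaine the value was -1.69 ± 0.78 for Ms4a7 and -1.33 ± 0.60 for Mrc1 (limma FDR 0.52 and 0.50). Cd163 had the values -0.79 ± 0.88 with Tat and -3.51 ± 0.88 with Tat-Cocaine, without a test. Both contrasts share the Control and 4OI libraries.

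General macrophage genes moved with these results. Of 16 genes shared by macrophages and microglia, such as C1qa, C1qb, C1qc and Csf1r, 0 were called with 4OI alone, 7 were lower with Tat-4OI and 6 were lower with Tat-Cocaine-4OI, with median log2 differences of -0.56, -1.10 and -1.11 against medians over all genes of 0.0047, -0.00019 and -0.0069. Their summed level was 3173 to 5683 CPM in Tat, 1262 to 2953 CPM in Tat-4OI, 2561 to 4186 CPM in Tat-Cocaine and 839 to 2750 CPM in Tat-Cocaine-4OI. Over all genes 0.686%, 9.48% and 3.29% were called lower with 4OI alone, with Tat-4OI and with Tat-Cocaine-4OI. The part of this list's movement in the results above was not tested. Each member was therefore also set against the mean log2 level of the 16 genes in the same library.

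On that relative scale the difference between Tat-Cocaine-4OI and Tat-Cocaine was -4.02 log2 units for Cd163, -2.56 for Lyve1, -2.50 for F13a1 and -0.53 for Folr2. Each of these 4 genes was relatively lower in every Tat-Cocaine-4OI library than in every Tat-Cocaine library, and of them only Folr2 was not picked for its fall. The other members overlapped, with Cd209f at -1.16, Ms4a7 at -0.97, Mrc1 at -0.65, Pf4 at 0.10 and Stab1 at 0.07. The share of all genes without overlap on this scale was not computed. With Tat-4OI, Ms4a7 was relatively lower by -1.81 and Folr2 by -0.57 with no overlap, whereas Pf4 was relatively higher by 0.70 with no overlap. The remaining members overlapped there. With the macrophage list as a covariate in the fit, 2 calls were lost, that of Mrc1 for Tat-4OI, at -0.60 in place of -1.44 (limma FDR 0.27), and that of Ms4a7 for Tat-Cocaine-4OI, at -1.02 in place of -2.05 (0.094). The log2 difference of F13a1 for Tat-4OI was then -1.37 in place of 0.09, without a test.

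**Figure D3:**
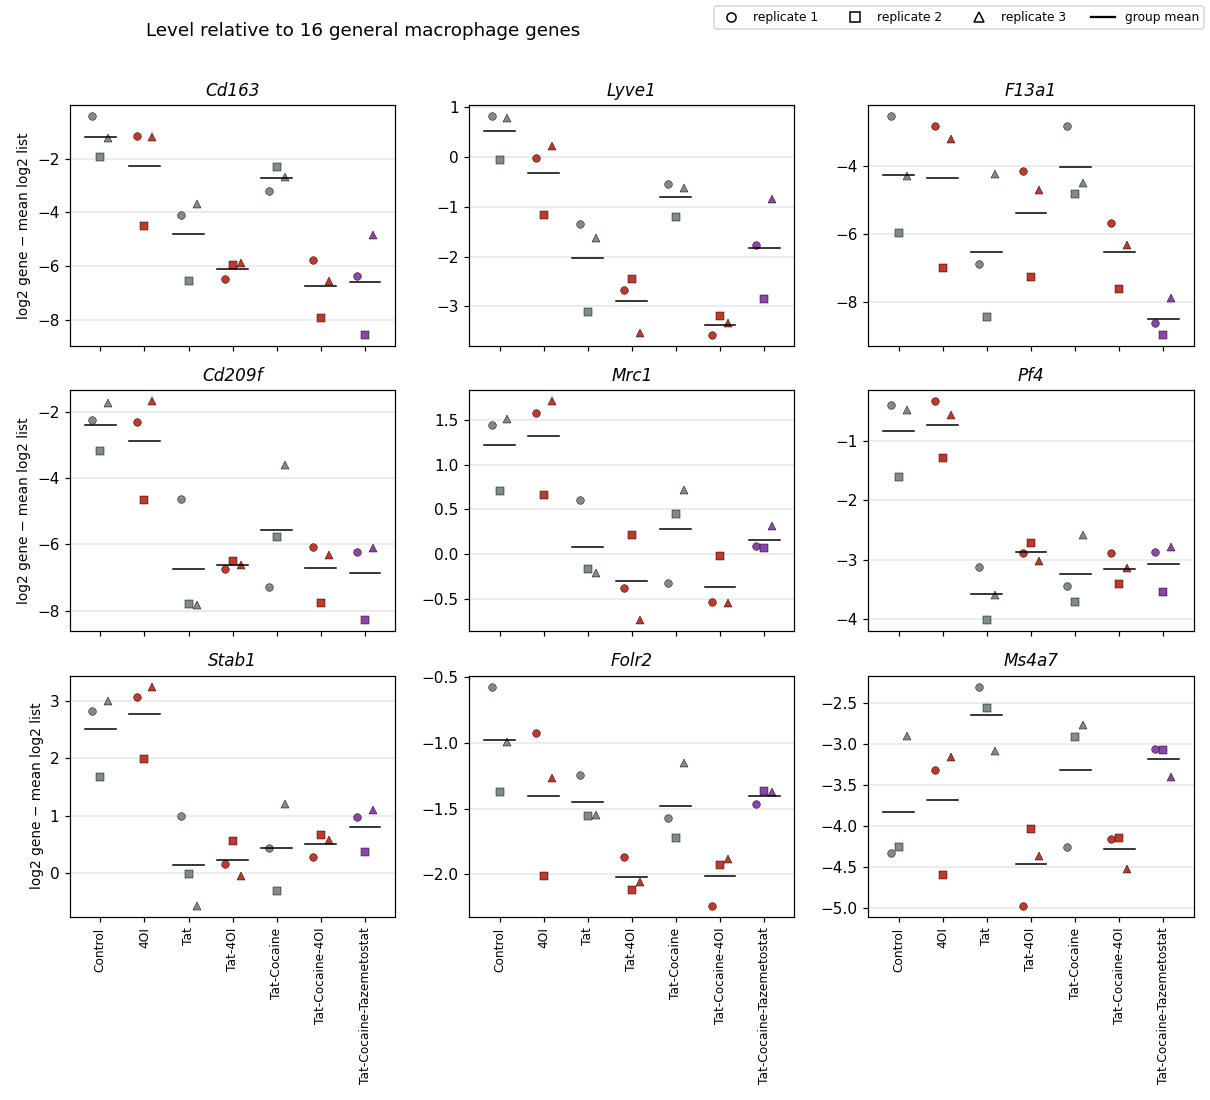
Log2 level of each gene minus the mean log2 level of 16 general macrophage genes in the same library, in 7 groups, with 1 point a library and the group mean as a line. Cd163 has its lowest mean in Tat-Cocaine-4OI and does not overlap Tat-Cocaine, while Mrc1 and Stab1 overlap between those groups.

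Tat itself was compared with Control to see where the genes stood with Tat and no 4OI. Pf4 was 63.1, 51.2 and 69.6 CPM in Control and 16.5, 15.2 and 12.4 CPM with Tat. Stab1 was 602, 505 and 789 CPM in Control and 294, 251 and 104 CPM with Tat. Both genes were lower in every Tat library, by log2 differences of -2.02 ± 0.36 and -1.65 ± 0.46 (limma, Benjamini-Hochberg FDR 9.1e-05 and 0.0085). These were 2 of the 5 tested genes, where 6.70% of all genes were called lower. Ms4a7 went the other way, from 3.70, 7.77 and 12.6 CPM to 29.6, 42.99 and 17.9 CPM, and was 1 of 5 called higher (log2 difference 1.91 ± 0.55, limma FDR 0.012), where 14.6% of all genes were. Mrc1 at -0.42 ± 0.42 and Folr2 at 0.25 ± 0.37 were not called.

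Stab1 lost its call without Tat replicate 3 (limma FDR 0.071), and Ms4a7 without Tat replicate 2 (0.087) or Control replicate 1 (0.11). Cd209f, for example, was 17.3, 16.96 and 28.7 CPM in Control against 5.42, 0.644 and 0.189 CPM with Tat. The 4 picked genes had log2 differences of -2.86 ± 0.62 for Cd163, -1.82 ± 0.44 for Lyve1, -3.64 ± 0.83 for Cd209f and -1.54 ± 1.00 for F13a1, and of these only F13a1 overlapped between Tat and Control. The 16 general macrophage genes moved upward here, with 5 called higher, where 14.6% of all genes were, and a median of 0.64. Relative to them Mrc1, Pf4 and Stab1 were lower in every Tat library, by -1.14, -2.74 and -2.37, while Folr2 (-0.47) and Ms4a7 (1.19) overlapped. With the list as a covariate Mrc1 was also called lower in Tat (-0.99, limma FDR 0.018) and in Tat-Cocaine (-0.87, FDR 0.031) than in Control.

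With Tat-Cocaine, Pf4 and Stab1 were again lower than in Control. Pf4 was 13.8, 7.204 and 27.1 CPM and Stab1 211, 81.0 and 377 CPM, all below the Control libraries. The log2 differences from Control were -2.08 ± 0.36 and -1.74 ± 0.46 (limma, Benjamini-Hochberg FDR 0.00011 and 0.0084), 2 of 5 genes where 6.30% of all genes were called lower. Stab1 lost its call without Tat-Cocaine replicate 2 (limma FDR 0.12). Mrc1, Folr2 and Ms4a7 had log2 differences of -0.61, -0.17 and 0.85 and were not called.

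Cocaine was then taken by itself. By limma 0 of the 5 genes were called between Cocaine and Control, where 0.201% of all genes were (1996 genes at an unadjusted p under 0.05). The values of the 9 genes ran from -0.83 ± 0.83 for Cd209f to 1.29 ± 1.00 for F13a1. Between Tat-Cocaine and Tat 0 of 5 were called, where 0.0189% of all genes were (1297 unadjusted). Cd163 was higher in every Tat-Cocaine library than in every Tat library, 16.6, 19.9 and 25.5 CPM against 8.11, 2.21 and 11.5 CPM, with a log2 difference of 1.67 ± 0.62, without a test.

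The other compounds were set against the same cultures without a compound. These comparisons share the Control, Tat or Tat-Cocaine libraries with those in which the 4 genes were picked. With Amlexanox 0 of the 5 genes were called by limma alone (11.4% of all genes), with Tat (0.837%) and with Tat-Cocaine (0.925%), while 4154, 1988 and 2829 genes had an unadjusted p under 0.05. In Tat-Cocaine-Amlexanox 2 of 5 were called without Tat-Cocaine replicate 3, when 8.29% of all genes were called too. Of the picked genes, without a test, Cd163 and Lyve1 were lower in every library with Amlexanox alone than in every Control library. Cd163 was 33.6, 34.3 and 40.2 CPM there and Lyve1 115, 69.7 and 104 CPM. Cd163 was also below every Tat-Cocaine library in Tat-Cocaine-Amlexanox, at 12.8, 7.18 and 11.3 CPM. Lyve1 in Tat-Amlexanox was above every Tat library, at 99.1, 75.3 and 61.3 CPM. F13a1 was 11.8, 3.54 and 40.4 CPM in Tat-Amlexanox against 0.760, 0.230 and 7.75 CPM in Tat, a log2 difference of 2.69 ± 1.00 without a test. Here same-numbered libraries deviated together, and the 3 numbers gave differences of 3.29, 2.47 and 2.31.

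F13a1 had its 2 highest means in Tat-Senicapoc and Senicapoc. Tat-Amlexanox and Amlexanox came next, both above Tat-Cocaine-Senicapoc. In 2 of 3 comparisons with Senicapoc, F13a1 overlapped the untreated libraries. It was 45.6, 12.99 and 20.8 CPM with Senicapoc alone against 14.3, 2.01 and 4.49 CPM in Control. Same-numbered libraries deviated together there (correlations 0.14 to 0.68), and the 3 numbers gave log2 differences of 1.64, 2.43 and 2.09, all higher. They did not all deviate together with Tat or with Tat-Cocaine. F13a1 was 24.4, 2.82 and 16.4 CPM in Tat-Cocaine-Senicapoc against 21.8, 3.11 and 6.88 CPM in Tat-Cocaine. In Tat-Senicapoc, at 62.1, 11.3 and 38.8 CPM, every library stood above the Tat libraries, with a log2 difference of 3.97 ± 1.00 and no test. By limma 0 of the 5 tested genes were called with Senicapoc alone (0% of all genes, 1378 unadjusted), with Tat (0.409%, 2909 unadjusted) or with Tat-Cocaine (0.0441%, 2466 unadjusted). In Tat-Cocaine-Senicapoc 2 of 5 were called without Tat-Cocaine replicate 3, when 6.20% of all genes were called too.

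Tazemetostat left 0 of 5 genes called by limma when given alone or with Tat (0% of all genes in both, 576 and 851 unadjusted). With Tat-Cocaine the 9 genes divided. Cd163, without a test, was 2.80, 0.510 and 7.85 CPM against 16.6, 19.9 and 25.5 CPM in Tat-Cocaine, and F13a1, also without one, was 0.193, 0.255 and 0.517 CPM against 21.8, 3.11 and 6.88 CPM. Every Tazemetostat library was lower for both. The log2 differences were -2.78 ± 0.62 and -3.37 ± 1.00. Of the 5 tested genes 0 were called lower, where 13.4% of all genes were.

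Pf4, Stab1 and Folr2 went up in the same libraries. Pf4 was 36.4, 32.2 and 34.1 CPM, Stab1 530, 486 and 512 CPM and Folr2 97.5, 147 and 91.8 CPM, each above all 3 Tat-Cocaine libraries. The log2 differences were 1.26 ± 0.36, 1.45 ± 0.46 and 1.16 ± 0.37 (limma, Benjamini-Hochberg FDR 0.014, 0.022 and 0.022), 3 of 5 genes where 15.2% of all genes were called higher. Mrc1 at 0.96 ± 0.42 and Ms4a7 at 1.21 ± 0.55 were not called, and Lyve1 at 0.05 ± 0.44 and Cd209f at -0.23 ± 0.83 carry no test.

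Other cell types moved there too. Of the 16 general macrophage genes 8 were higher with a median of 1.08 and a summed level of 5579 to 8680 CPM, and of 10 neuronal genes 8 were lower with a median of -1.03. Over all genes 15.2% were called higher and 13.4% lower. The part of these cell types in the result was not tested. With the macrophage list as a covariate the count of higher genes was 0, when 24 of 15890 genes were called higher, and relative to that list Cd163 was lower by -3.86 and F13a1 by -4.45 in every library.

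The Tazemetostat calls also depended on single libraries, and the calls over all genes moved with them. No member was called higher without Tat-Cocaine replicate 1, Tat-Cocaine replicate 2 or Tat-Cocaine-Tazemetostat replicate 2, when 0.857%, 2.42% and 0.586% of all genes were called higher. Without Tat-Cocaine-Tazemetostat replicate 1 Stab1 was not called (limma FDR 0.052), and without Tat-Cocaine replicate 3 Mrc1 and Ms4a7 were also called higher (0.027 and 0.036), when 20.4% of all genes were. The difference between the Tazemetostat change with Tat-Cocaine and that alone or with Tat, chosen after the data were seen, gave 0 of 5 calls by limma and 0% of all genes in both (2187 and 2373 unadjusted).

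Direct comparisons set 4OI against each other compound under the same Tat and cocaine treatment. The doses were 250 µM for 4OI and 25, 3 and 1 µM for the others, so the values below stand side by side and are no comparison of potency. Given alone, 4OI was called lower than Amlexanox in 0 of 5 genes (4.51% of all genes, 4699 unadjusted), than Tazemetostat in 1 of 5 (0.900%) and than Senicapoc in 0 of 5 (0.302%, 2168 unadjusted). The 1 gene was Folr2, at 29.2, 33.1 and 24.5 CPM against 73.6, 73.6 and 72.7 CPM (log2 difference -1.34 ± 0.37, limma FDR 0.036), and its call was lost when any 1 of the 6 libraries was left out.

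With Tat, 5 of 5 genes were lower with 4OI than with Amlexanox (6.82% of all genes), 5 of 5 than with Tazemetostat (9.72%) and 4 of 5 than with Senicapoc (4.15%), where Pf4 was not called. Ms4a7 had log2 differences of -2.39, -2.52 and -2.23 and Folr2 of -1.48, -1.96 and -1.62. Leaving out Tat-4OI replicate 3 brought these counts to 1, 3 and 0, when 3.29%, 4.28% and 1.67% of all genes were called lower. Against Amlexanox the count was 3 without Tat-Amlexanox replicate 1 (2.24% of all genes) or 2 (3.33%). Against Tazemetostat it was 2 without Tat-Tazemetostat replicate 2 (1.98%). Against Senicapoc it was 1 without Tat-4OI replicate 1 (1.79%) or Tat-Senicapoc replicate 2 (1.67%), and 2 without Tat-Senicapoc replicate 3 (1.56%). When only the 6 libraries compared were fitted the counts were 3, 0 and 2 (7.84%, 0.967% and 2.61%). The 16 general macrophage genes were lower with 4OI as well, 3 of 16 against Amlexanox (median -0.93), 14 against Tazemetostat (-1.43) and 4 against Senicapoc (-1.02). Taken as a covariate, they left a count of members of 1 against Tazemetostat (1.37% of all genes) and 2 against Senicapoc (6.85%).

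With Tat-Cocaine, 5 of 5 genes were called lower with 4OI than with Amlexanox (4.97% of all genes), Tazemetostat (13.9%) and Senicapoc (7.77%). For these 5 genes every 4OI library was also lower than every library of the other compound. The share of all genes without overlap was not computed. Against Tazemetostat the log2 differences were -2.78 ± 0.37 for Folr2, -2.69 ± 0.42 for Mrc1, -2.24 ± 0.36 for Pf4, -2.47 ± 0.46 for Stab1 and -3.27 ± 0.55 for Ms4a7 (limma, Benjamini-Hochberg FDR from 2.4e-06 for Folr2 to 0.00019 for Stab1). In all 3 comparisons the general macrophage genes were lower too, 8 of 16 against Amlexanox (median -1.33), 16 against Tazemetostat (-2.12) and 15 against Senicapoc (-1.67), and their part in the members' values was not tested. With them as a covariate the count of members was 1 against Tazemetostat (1.94% of all genes) and 3 against Senicapoc (11.7%). With only the 6 libraries compared it was 1 against Amlexanox (1.58%). The counts of 5 stayed the same when any 1 library was left out. Of the picked genes, F13a1 was about as low with Tazemetostat as with 4OI, at 0.322 ± 0.172 and 0.201 ± 0.0700 CPM, and their libraries overlapped.

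Other genes of border macrophages were taken from a list of 17, of which 13 were in the table and 7 passed the filter. With 4OI alone 0 were called, with Tat-4OI 4 were lower (median -1.20) and with Tat-Cocaine-4OI 3 were lower (median -0.92). Over all genes 0.686%, 9.48% and 3.29% were called lower in these 3 comparisons. Siglec1, the sialic acid receptor sialoadhesin, was 18.1 CPM in Tat-4OI against 113 CPM in Tat (log2 difference -2.68, limma FDR 0.0031) and 12.0 against 68.8 CPM with Tat-Cocaine (-2.86, FDR 0.0033). Clec10a, a galactose-type lectin, was 0.164 CPM in Tat-Cocaine-4OI against 6.92 CPM (-3.35, limma FDR 5.1e-05), and it was lower in Tat-Cocaine-Tazemetostat (-2.47, FDR 0.0053). In Tat-Cocaine-4OI 1 read was worth 0.0468 to 0.0583 CPM, so the Clec10a mean there lies near the floor. The size of the -3.35 depends on the pseudocount. Gas6, a bridging ligand for dying cells and the most abundant gene of the list, was 529 against 498 CPM with Tat-4OI (0.09) and was not called.

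Scavenger receptors and regulators of macrophages completed the pathway lists. Over all genes 0.686%, 9.48% and 3.29% were called lower with 4OI alone, with Tat and with Tat-Cocaine. Of 12 other scavenger and lectin receptors 0, 5 and 4 were lower in these comparisons, the median being -0.14, -0.49 and -0.66. Clec7a, the beta-glucan receptor dectin-1, was among them with -1.26 for Tat-4OI and -1.48 for Tat-Cocaine-4OI (limma FDR 0.0038 and 0.0013), whereas Lrp1 at -0.02 and Axl at -0.22 for Tat-4OI were not called. Of 14 regulators 1, 7 and 2 were lower. With 4OI alone 1 was higher (Cebpb, 1.03, limma FDR 0.0033), where 2.47% of all genes were. Il10, which encodes the cytokine that raises Cd163, was 0.0178 CPM in Tat-4OI against 0.714 CPM in Tat (-1.13, limma FDR 0.0016). In Tat-4OI 1 read was worth 0.0487 to 0.0538 CPM, so this mean lies at the floor and the size of the difference depends on the pseudocount. A link between Il10 and Cd163 was not tested.

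Lists for other cells were read in the same 3 comparisons, 4OI alone, with Tat and with Tat-Cocaine, where 0.686%, 9.48% and 3.29% of all genes were called lower. Of 10 homeostatic microglia genes 0, 2 and 0 were lower (medians -0.39, -0.75 and -0.39). Of 4 monocyte and granulocyte genes 0, 3 and 2 were lower, and of 7 meningeal fibroblast genes 0, 1 and 2 were lower (medians -0.65, -1.01 and -1.66). Of 9 astrocyte genes 1, 1 and 4 were higher, where 2.47%, 6.10% and 4.07% of all genes were. None of 10 neuronal, 6 endothelial or 8 oligodendrocyte genes was called, 1 of 6 mural genes was lower with Tat, and none of 6 lymphocyte genes passed the filter. Their part in the members' values was not tested.

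Correlations among the 9 genes were taken over the 48 libraries on the log2 scale, as a description, since the libraries share groups and depth. Pf4 with Stab1 had r = 0.93, Mrc1 with Folr2 0.91 and Cd163 with Lyve1 0.84. Cd163 with Ms4a7 had 0.06 and F13a1 with Folr2 0.10. After the group means were taken out, Mrc1 with Folr2 and with Stab1 still had 0.87 each, while Cd163 with Folr2 had -0.36 and F13a1 with Ms4a7 -0.58.

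**Figure D4:**
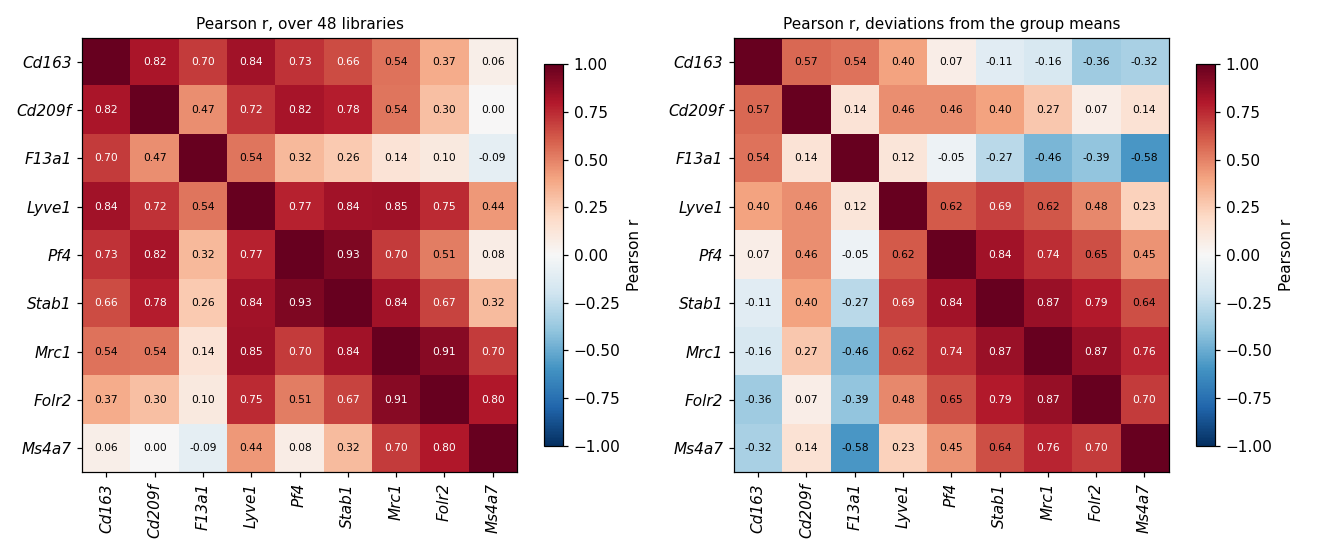
Pearson r between each pair of the 9 genes, over the log2 levels of the 48 libraries and over the deviations of the libraries from their group means. Pf4 with Stab1 and Mrc1 with Folr2 are the strongest pairs over all libraries, and F13a1 is negative against Ms4a7 within groups.

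The genes with a pattern most like the mean of the 9 standardized log2 levels were named by Pearson r over the 48 libraries, which share groups and depth. Tlr5, the flagellin receptor, came first with r = 0.96, followed by the unnamed locus AABR07021972.2 (0.92), Ms4a4e (0.89), Slc10a6, a carrier of sulphated steroids (0.89), and the chemokine receptor gene Ccr1 (0.89). Cd4, which rat macrophages carry as well as T cells, had 0.88, and F2rl3, a thrombin receptor, 0.86. Within groups Tlr5 had r = 0.84 and Ccr1 0.38.

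Replicate number went with the level of some of these genes. F13a1 was lowest in replicate 2 in 14 of 16 groups, and Cd163 and Cd209f each in 10 of 16. Folr2 was highest in replicate 2 in 15 of 16 groups, Mrc1 in 13 and Ms4a7 in 10. Of the 15890 genes tested, 216 (1.36%) had 1 replicate number lowest in 14 or more groups, and for 212 of them it was replicate 2. The labels do not say what a replicate number stands for. Within replicate 2, Tat-Cocaine-4OI minus Tat-Cocaine was -0.07 log2 units for Mrc1 and 0.19 for Folr2, while it was 0.70 for Pf4, 1.38 for Stab1 and -5.19 for Cd163. Within replicates 1 and 3 it was -2.19 and -2.94 for Mrc1, -2.63 and -2.41 for Folr2, and -1.42 and -2.24 for Pf4. For Stab1 it was -2.12 and -2.31, and for Cd163 -4.54 and -5.56. Same-numbered libraries did not all deviate together in this comparison (correlations -0.20 to 0.58), so these pairs may share only a number.

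**Figure D5:**
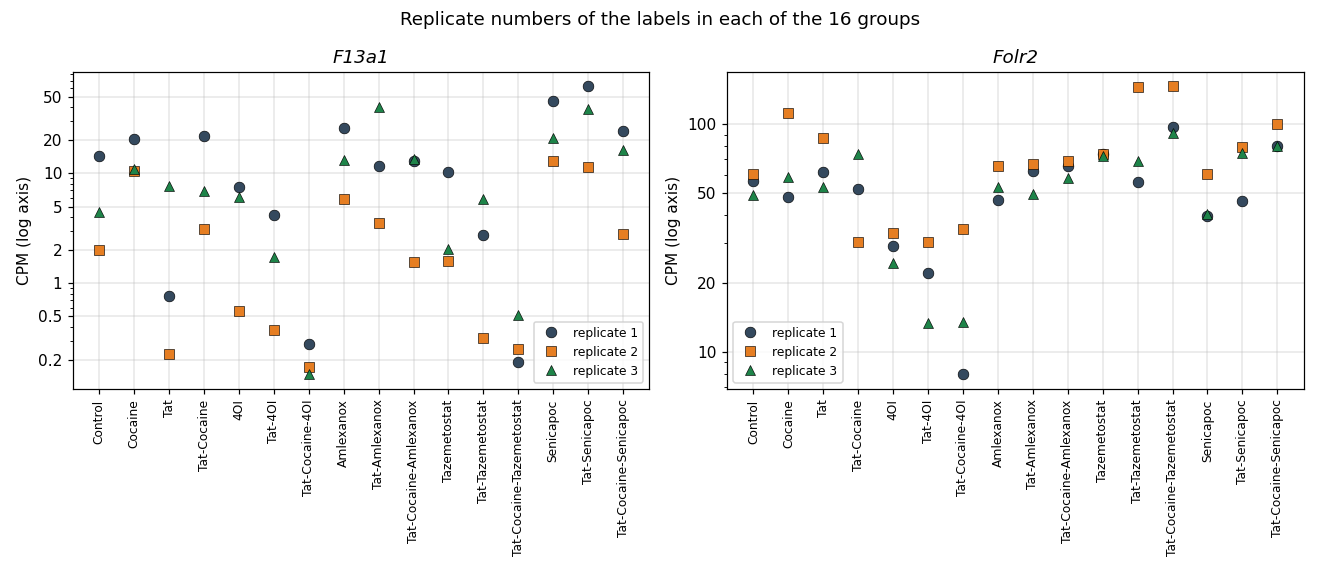
CPM of F13a1 and Folr2 in the 16 groups by replicate number, on a log axis. Replicate 2 is the lowest for F13a1 in 14 groups and the highest for Folr2 in 15.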

How the data were processed

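RNA-seq of rat cortical cultures was measured in 48 libraries, 3 in each of 16 groups. Per the labels the libraries were polyA-selected and strand-specific, and the submitters' processing notes name Trim Galore 0.4.5, STAR 2.7.2, SAMtools 1.5 and Subread 1.5.3 with featureCounts. The authors deposited 1 table of signal values per gene and library, CPM values scaled by the TMM method, with group means and the authors' own comparisons (fold changes and p-values), which were not used. Genome builds are named differently in the sources, so no coordinate comes from the table. The values could not be turned back into whole reads for nearly all genes (84.3% to 87.3% of values lay within 0.02 of a whole read), so no count model was run.

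Here log2(CPM + 0.5) was fitted with limma 3.58.1 in R 4.3.3 (lmFit, eBayes with trend) over all 48 libraries with 1 mean per group. A gene was tested if 3 libraries or more reached 0.5 CPM (15890 genes), and p-values were adjusted by Benjamini-Hochberg over them, with a threshold of 0.05. The 4 members picked for their falls were left untested in every comparison, also where a test of them against other compounds had been planned. The members and gene lists were chosen with earlier results of these data known. The genes to be named were all 9 members, the 10 genes most correlated with their mean, and from each list the 3 most abundant genes and up to 3 called genes with the largest difference in Tat-4OI against Tat, and a selection of these is given. Other named genes are markers used to check the cell type. A gene of the regulator list is not reported here. Replicates of a group were different libraries (48 pairs, 0 identical). Depth was 17515191 to 29056637 reads. The smallest p of an exact permutation test of 3 against 3 libraries is 0.1, so none was used. Same-numbered libraries deviated together in every pair (correlation over 0.1) in 9 comparisons, among them 4OI against Control (0.28 to 0.47) and Tat-Amlexanox against Tat (0.27 to 0.68), and this was decided from the data, since the labels do not say what the numbers mean. Alternatives were other pseudocounts, filters, scalings, fits, weights, a replicate block, a macrophage covariate and leaving out each library.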

Additional observations from a re-analysis of the deposited data

How the results depend on the processing

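Pseudocounts of 0.1 and 1, a filter at 2 CPM, median ratio or quantile scaling and a fit without trend moved none of the counts of called genes among the 5 tested beyond 1.5 times. Without a filter the count for 4OI against Tazemetostat went from 1 to 0, when 0.487% of all genes were called lower. With array weights, which did not fully converge, the count of lower genes was 1 for 4OI against Control, 5 for Tat-4OI against Tat, 3 for the difference of 4OI with Tat minus alone, 1 for 4OI against Amlexanox, 5 against Tazemetostat and 1 against Senicapoc, when 8.51%, 20.7%, 9.33%, 15.9%, 19.9% and 5.56% of all genes were called lower. The count in either direction was then 2 for Tat-Cocaine-Amlexanox (27.02% of all genes), 5 for Tat-Cocaine-Senicapoc (28.6%), 5 higher for Tat-Cocaine-Tazemetostat (31.7%), and 3 and 4 for the Tazemetostat differences from alone and from Tat (29.2% and 43.6%).

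With the compared groups alone the count was 1 for 4OI against Control, when 0.0535% of all genes were called lower. It was 0 for Tat-Cocaine-4OI (0.280% of all genes), 0 higher for Tat (5.75%) and 1 for Tat-Cocaine against Control (1.92%). For Tat-Cocaine-Tazemetostat it was 1 higher (12.7%). For 4OI against Amlexanox it was 1 (1.00%), 3 with Tat (7.84%) and 1 with Tat-Cocaine (1.58%). Against Tazemetostat it was 4 (1.55%) and 0 with Tat (0.967%). For Tat-4OI against Tat-Senicapoc it was 2 (2.61%). Fewer residual degrees of freedom are part of that fit. With the 21 libraries of 7 groups the count was 0 for Tat-Cocaine-4OI (1.31% of all genes) and 1 for Tat-Cocaine against Control (4.27%). For Tat it was 1 lower (4.59%) and 0 higher (9.69%). With the replicate block the count was 5 higher for Tat-Cocaine-Tazemetostat (19.8% of all genes). It was 1 for the 4OI difference with Tat (1.32%) and 1 for 4OI against Amlexanox (6.29%). The block moved no other count beyond 1.5 times. In Tat-Cocaine-Tazemetostat and in 4OI against Amlexanox the libraries shared only a number, by their correlations.

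With the macrophage list as a covariate the count was 0 higher for Tat-Cocaine-Tazemetostat (0.151% of all genes) and 1 for 4OI against Amlexanox (10.3%). Against Tazemetostat it was 0 (0.566%), 1 with Tat (1.37%) and 1 with Tat-Cocaine (1.94%). Against Senicapoc it was 1 (0.913%), 2 with Tat (6.85%) and 3 with Tat-Cocaine (11.7%). Under that covariate Stab1 (0.10) and Ms4a7 (0.12) for 4OI alone, Pf4 for Tat-4OI (0.021), and Folr2 for Tat against Control (-0.33) changed sign.

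When 1 library was left out, the count ran from 0 to 5 for Tat-Cocaine-4OI, 2 to 4 for Tat-4OI, 1 to 2 lower and 0 to 1 higher for Tat, 1 to 2 for Tat-Cocaine against Control, 0 to 2 for Tat-Cocaine-Amlexanox, 0 to 5 higher for Tat-Cocaine-Tazemetostat, 0 to 2 for Tat-Cocaine-Senicapoc, 1 to 5, 2 to 5 and 0 to 5 for Tat-4OI against Tat-Amlexanox, Tat-Tazemetostat and Tat-Senicapoc, and 0 to 0 for 4OI against Tazemetostat. Signs changed for Ms4a7 in 4OI against Control without Control replicate 3 (0.027, range -0.79 to 0.027) and Folr2 in Tat-Cocaine against Control without Tat-Cocaine replicate 2 (0.17, range -0.47 to 0.17). The cause of these changes was not tested. At 1 read a value of 0.0334 to 0.0583 CPM, depth limits the lowest values of Cd163, F13a1 and Cd209f.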
